A study of Mus musculus with 20 samples.

Results

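Kidney transcripts of 10 genes of zinc and copper handling were compared in control mice and mice given puberulic acid. The genes were chosen by symbol among the 55822 genes of the deposited table: the metallothioneins Mt1 and Mt2, the zinc transporters Slc30a1, Slc39a8, Slc39a10 and Slc39a14, the copper transporters Slc31a1, Atp7a and Atp7b, and the copper protein Cp. Each symbol had 1 row, and all 10 genes passed the filter on low counts. Per the labels, the animals were male C57BL/6J mice aged 8 weeks that were dosed once daily, 6 times in all, and whose kidneys were taken on day 7 after a day without dosing. The control group received PBS and the other group puberulic acid at 1 mg per day, with 5 whole-kidney samples in each group, and no genetic alteration is stated. The labels name oral dosing in one place, and either gavage or intraperitoneal injection in another, without saying which animal had which. They number the samples without stating that each is a different animal, so the p-values measure the spread between these samples. Other mice received the supplement Choleste-Help at 1000 mg per day, from a normal lot or a toxic lot. The 5 samples of each lot are not analysed here because the 10 column names concerned do not show which lot they hold.

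Metallothioneins are small proteins rich in cysteine that bind zinc and copper and so buffer these metals in the cytosol. Zinc enters the cytosol through transporters of the SLC39 (ZIP) family and leaves it through those of the SLC30 (ZnT) family, while copper enters through SLC31A1 (CTR1) and is pumped into the secretory pathway or out of the cell by ATP7A and ATP7B. Free zinc activates the transcription factor MTF1, which binds metal response elements and is known to induce Mt1, Mt2 and Slc30a1. In the kidney the proximal tubule takes up filtered metal bound to metallothionein. Puberulic acid is a tropolone made by some Penicillium moulds, and tropolones as a class bind metal ions.

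Total estimated counts ran from 18409877 to 22725274 in the control samples and from 19897287 to 24705587 with puberulic acid. Differential expression was tested over 16266 genes with edgeR's quasi-likelihood test, and a gene was called at a Benjamini-Hochberg adjusted p under 0.05. Levels are CPM, counts per library brought to a common size, scaled with TMM factors (trimmed mean of M-values). The direction of calls over all genes depended on this scaling: 52.38% of the calls were higher with TMM factors against 78.42% when scaled to total counts, and the median log2 fold change of the tested genes was 0.05 and 0.56. Values here are relative to the TMM scaling. Proximal tubule markers were present in every sample. All 10 were called lower, against 31.1% of all tested genes. Their summed level was 31350 to 43130 CPM in controls and 5377 to 7265 CPM under puberulic acid. Kap made up most of this sum, with means of 28710 and 5151 CPM, and the median log2 fold change of the 10 markers was -3.27. In bulk tissue, fewer cells of a type and less RNA per cell cannot be told apart.

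Of the 10 genes, 6 were called higher with puberulic acid (Mt1, Mt2, Slc39a10, Slc39a14, Atp7a and Cp) and 4 were called lower (Slc30a1, Slc39a8, Slc31a1 and Atp7b). Over all tested genes 34.2% were called higher and 31.1% lower, 65.3% in all, so a call was common among genes of any kind. For 9 of the 10 genes the groups had separate CPM ranges, 5 above the controls and 4 below, against 26.1% above, 24.0% below and 50.1% in all over the tested genes. The median log2 fold change of the 10 genes was 0.50, against 0.05 over all tested genes. The changes ran from a fall by 1.52 for Slc39a8 to a rise of 2.71 for Mt2 on the log2 scale. With total-count scaling the 6 genes were still called higher, but only Slc39a8 and Slc31a1 of the 4 were called lower.

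**Figure D1:**
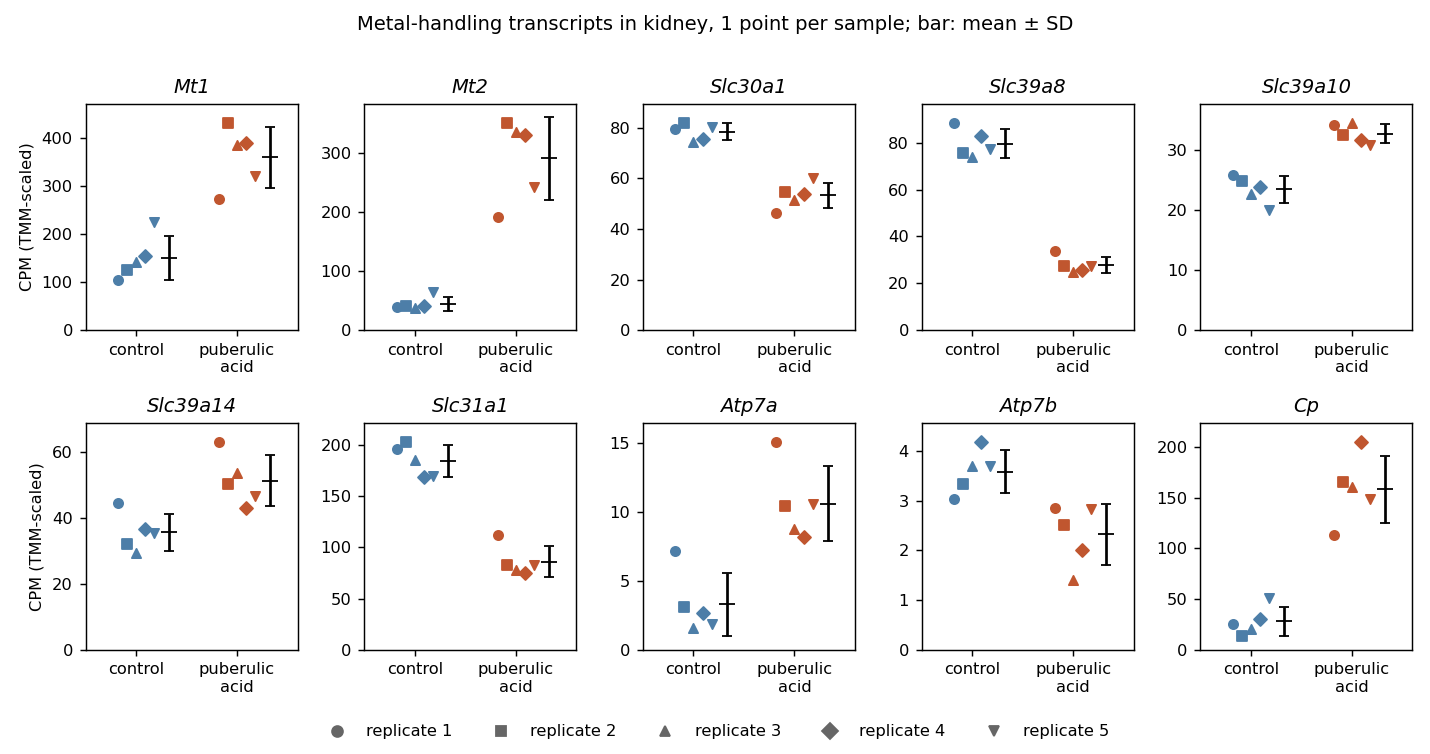
Levels of the 10 genes in CPM (vertical axes, starting at 0) in 5 control samples (blue) and 5 puberulic acid samples (orange), with 1 point per sample and the mean ± SD beside each group. The groups are separate in every panel but that of Slc39a14, where 1 control sample at 44.4 CPM lies above the lowest puberulic acid sample at 42.9 CPM.

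Both metallothioneins rose, with a log2 change of 2.71 for Mt2 and 1.26 for Mt1, and the difference between the 2 genes was not tested. In control replicates 1 to 5, Mt2 (ENSMUSG00000031762) stood at 38.7, 40.3, 36.9, 40.75 and 65.4 CPM, and in puberulic acid replicates 1 to 5 at 192.0, 352, 337, 332 and 244 CPM. Every puberulic acid sample was above every control sample, replicate 5 was the highest control, and replicate 1 was the lowest puberulic acid sample. The mean went from 44.4 ± 11.8 to 291 ± 69.9 CPM (SD, n = 5 per group), 6.56-fold, with a log2 change of 2.71 (SE 0.21, adjusted p = 5.3e-07).

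For Mt1 (ENSMUSG00000031765), the control samples had 103, 124.5, 143, 154.5 and 225 CPM and the puberulic acid samples 272, 431, 385.5, 388 and 319.6 CPM, in the same order of replicates. The groups did not overlap here either, and the same samples were at the edges: replicate 5 was the highest control and replicate 1 the lowest puberulic acid sample. The mean rose 2.40-fold, from 149.9 ± 46.1 to 359 ± 63.2 CPM (SD, n = 5 per group), a log2 change of 1.26 (SE 0.20, adjusted p = 0.000136). The number of Mt2 reads per Mt1 read, in which gene length cancels between samples, was 0.259 to 0.375 in the controls and 0.707 to 0.874 with puberulic acid. The ratio therefore had separate ranges in the 2 groups, and no test was made of it. Together both genes took 0.0117% to 0.0243% of the counts in controls and 0.0544% to 0.0924% with puberulic acid.

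The sequences before the starts of Mt1, Mt2 and Slc30a1 are shown because MTF1 is known to act on all 3 genes, while here the first pair rose and Slc30a1 fell. They are the 250 bases before the start that RefSeq annotates, read 5′ to 3′ on the strand of the gene, in the build GRCm38.p6. Capitals mark each match to the core of the metal response element, TGCACNC or TGCGCNC, on either strand.
Mt1, chr8:94178839-94179088, plus strand: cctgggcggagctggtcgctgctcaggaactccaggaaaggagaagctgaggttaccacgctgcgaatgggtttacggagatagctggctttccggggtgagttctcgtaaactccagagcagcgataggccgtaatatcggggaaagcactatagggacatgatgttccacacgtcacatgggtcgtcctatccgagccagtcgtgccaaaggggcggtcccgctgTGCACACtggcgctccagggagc
Mt2, chr8:94172368-94172617, plus strand: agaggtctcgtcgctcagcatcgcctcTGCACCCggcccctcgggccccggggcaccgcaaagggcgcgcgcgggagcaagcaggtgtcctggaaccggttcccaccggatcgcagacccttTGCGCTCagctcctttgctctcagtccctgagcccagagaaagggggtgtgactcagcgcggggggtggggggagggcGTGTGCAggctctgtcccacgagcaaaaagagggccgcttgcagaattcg
Slc30a1, chr1:191906531-191906780, plus strand: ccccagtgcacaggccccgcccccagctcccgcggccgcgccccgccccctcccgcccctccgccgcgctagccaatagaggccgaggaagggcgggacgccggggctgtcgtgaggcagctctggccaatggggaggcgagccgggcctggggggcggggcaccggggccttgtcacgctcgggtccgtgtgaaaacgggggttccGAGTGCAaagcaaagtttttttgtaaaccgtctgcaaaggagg

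Including the 50 bases after the start, which are not printed, the 300-base window held 3 such matches at Mt1, 4 at Mt2 and 2 at Slc30a1. Of 32851 windows of that length around RefSeq starts, 25.7% held at least 1 match and 1.97% held 3 or more. The 3 matches of Mt1 lie at -23 to -17, 3 to 9 and 21 to 27 bases from the start, and the 4 of Mt2 at -223 to -217, -128 to -122, -50 to -44 and 5 to 11. The start used decides what a window holds: the GENCODE M21 annotation of the same build also places starts of Mt1 transcripts 122 and 152 bases downstream, starts of Mt2 46 and 242 bases downstream, and a start of Slc30a1 475 bases downstream. All but the Mt2 start at 46 bases lie past the end of the window, so part or all of the sequence directly before them was not searched. A match is a run of letters and not a measured binding site.

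**Figure D2:**
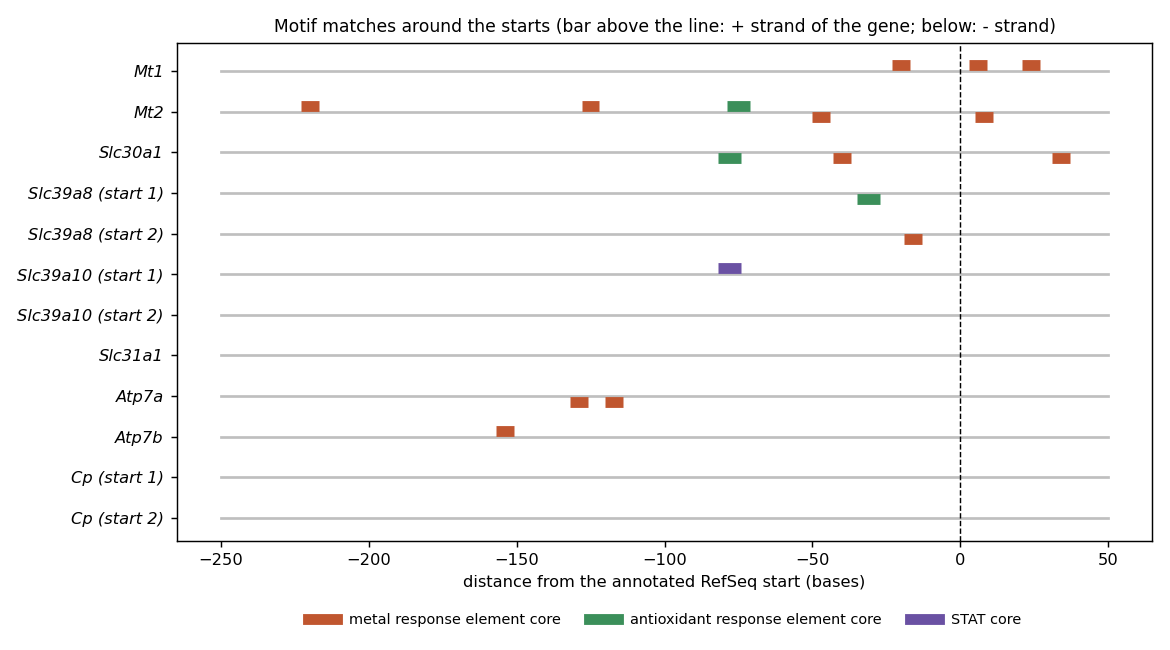
Matches to 3 motifs around the RefSeq starts of 9 of the 10 genes, by distance from the start in bases (horizontal axis), with matches on the strand of the gene drawn above each line and those on the other strand below. Mt2 has 4 matches to the metal response element core and Mt1 has 3, while the windows of Slc31a1 and Cp have none.

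Windows were found for 9 of the 10 genes, 3 of them with a pair of starts, and Slc39a14 was not matched. The metal response element core also occurred in Atp7a (2 matches), Atp7b (1 match) and the second window of Slc39a8 (1 match). Of the other motifs searched on both strands, the antioxidant response element core TGACNNNGC was found once each in Mt2, Slc30a1 and the first window of Slc39a8, and in 12.4% of all windows. The STAT core TTCNNNGAA was found once, in the first window of Slc39a10, and in 8.3% of all windows. Matches therefore occurred at genes that rose and at genes that fell.

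Among the zinc transporters, the exporter and 1 importer fell while 2 importers rose. Slc30a1 (ENSMUSG00000037434) encodes ZnT1, the zinc exporter of the plasma membrane. Its control samples had 79.6, 82.0, 74.5, 75.6 and 80.4 CPM and its puberulic acid samples 46.4, 54.6, 51.3, 53.7 and 60.1 CPM. The groups did not overlap, and within each group the samples lay close together. The mean went from 78.4 ± 3.23 to 53.2 ± 4.99 CPM (SD, n = 5 per group), 1.47-fold lower, with a log2 change of -0.56 (SE 0.08, adjusted p = 6.81e-05). This call depended on scaling: with total counts the log2 fold change was -0.05 (adjusted p = 0.653), and the lowest adjusted p of its alternatives was 1.62e-10.

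Slc39a8 (ENSMUSG00000053897), which encodes the zinc and manganese importer ZIP8, fell furthest of the 10. It had 88.6, 75.45, 73.8, 82.7 and 77.5 CPM in the controls and 33.9, 27.35, 24.7, 25.7 and 27.5 CPM under puberulic acid. All 5 puberulic acid samples lay below the lowest control. The mean went from 79.6 ± 6.04 to 27.8 ± 3.60 CPM (SD, n = 5 per group), 2.86-fold lower, with a log2 change of -1.52 (SE 0.10, adjusted p = 1.46e-07). It remained called lower with total counts, at -1.01.

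The 2 importers that rose had smaller log2 changes than the metallothioneins, a difference that was not tested. Slc39a10 (ENSMUSG00000025986), the zinc importer ZIP10, had 25.9, 24.8, 22.7, 23.8 and 19.9 CPM in controls and 34.1, 32.5, 34.6, 31.6 and 30.9 CPM under puberulic acid. The groups did not overlap, and the lowest puberulic acid sample was above the highest control at 25.9 CPM. The means were 23.4 ± 2.28 and 32.7 ± 1.59 CPM (SD, n = 5 per group), a log2 change of 0.48 (SE 0.09, adjusted p = 0.000409). Slc39a14 (ENSMUSG00000022094), the importer ZIP14 of zinc, manganese and iron not bound to transferrin, had 44.4, 32.1, 29.3, 36.7 and 35.5 CPM in controls. With puberulic acid it had 63.0, 50.2, 53.7, 42.9 and 46.6 CPM, and 4 of the 5 samples lay above every control. Its means were 35.6 ± 5.71 and 51.3 ± 7.69 CPM (SD, n = 5 per group), a log2 change of 0.53 (SE 0.13, adjusted p = 0.00351). Over the tested genes the median log2 fold change moved from 0.05 to 0.56 between the scalings, a step about as large as the change of either importer. With total counts both were still called higher, Slc39a10 at 0.99 and Slc39a14 at 1.035.

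The copper importer fell, and of the copper pumps Atp7a rose and Atp7b was lower. Slc31a1 (ENSMUSG00000066150), which encodes CTR1, stood at 196, 203, 186, 169 and 169.5 CPM in controls and at 112, 82.85, 77.9, 74.65 and 83.3 CPM under puberulic acid. Puberulic acid replicate 1 stood apart from the other 4 samples of its group, toward the controls, and was still below all of them. The mean went from 185 ± 15.4 to 86.2 ± 15.0 CPM (SD, n = 5 per group), 2.14-fold lower, with a log2 change of -1.10 (SE 0.12, adjusted p = 6.14e-06). With total counts it was still called lower, at -0.59.

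Atp7a and Atp7b encode the copper pumps altered in Menkes and Wilson disease, and their transcripts had log2 changes of opposite sign. Atp7a (ENSMUSG00000033792) had 7.19, 3.11, 1.59, 2.68 and 1.88 CPM in controls and 15.1, 10.4, 8.77, 8.19 and 10.5 CPM under puberulic acid. Control replicate 1 was well above the other controls, and it was below the lowest puberulic acid sample. The mean rose 3.20-fold, from 3.29 ± 2.26 to 10.6 ± 2.70 CPM (SD, n = 5 per group), a log2 change of 1.68 (SE 0.37, adjusted p = 0.00159). The control values rest on 25 to 126 counts per library.

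Atp7b (ENSMUSG00000006567) had 3.02, 3.32, 3.69, 4.18 and 3.70 CPM in controls and 2.86, 2.51, 1.40, 2.00 and 2.83 CPM under puberulic acid. The highest puberulic acid sample, at 2.86 CPM, was just under the lowest control at 3.02 CPM. The means were 3.58 ± 0.43 and 2.32 ± 0.62 CPM (SD, n = 5 per group), a log2 change of -0.62 (SE 0.22, adjusted p = 0.0262) from 33 to 88 counts per library in either group. Its adjusted p was the highest of the 10. The call was lost with upper-quartile factors (adjusted p = 0.0501), total counts (0.677), no filter (0.0543), the replicate number as a block (0.0533) and without control replicate 4 (0.0583), and the lowest adjusted p of its alternatives was 0.0133.

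Cp (ENSMUSG00000003617) encodes ceruloplasmin, a ferroxidase that carries copper and is best known from liver and plasma. It had 25.6, 13.4, 20.8, 30.2 and 50.97 CPM in controls and 113, 165, 160.3, 205 and 149 CPM under puberulic acid. The groups were well separated, with replicate 5 the highest control and replicate 1 the lowest puberulic acid sample, as for both metallothioneins. The mean rose 5.63-fold, from 28.2 ± 14.2 to 158.5 ± 32.9 CPM (SD, n = 5 per group), a log2 change of 2.49 (SE 0.30, adjusted p = 1.85e-05). Of 10 hepatocyte markers 7 were tested, 6 were called lower and none higher, with a median log2 fold change of -1.385. The shares over all tested genes were 31.1% lower and 34.2% higher. Their summed level ran from 1691 to 2297 CPM in controls and from 183 to 419 CPM under puberulic acid, but most of it was Cyp2e1, which mouse kidney also expresses and which had means of 1801 and 231 CPM, so the sum is no measure of hepatocyte RNA. The 3 markers below the filter were near 0: per library, Ahsg had 0 to 2 counts in controls and 0 to 10 with puberulic acid, Cps1 0 to 2 and 0 to 4, and Tat 0 and 3 to 13. Alb, the albumin gene, was at 5.30 ± 1.04 and 3.52 ± 0.94 CPM (SD, n = 5 per group).

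**Figure D3:**
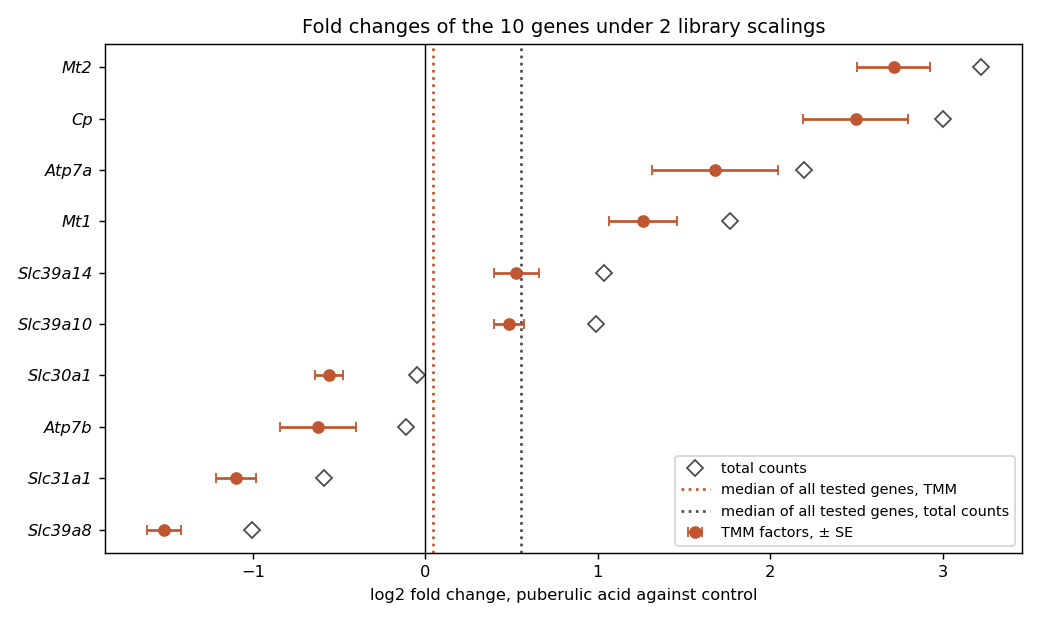
Log2 fold changes of the 10 genes (horizontal axis, puberulic acid against control), as filled circles ± SE with TMM factors and open diamonds with total counts, with dotted lines at the medians of all tested genes. Total counts shift every gene to the right, and Slc30a1 and Atp7b then lie near 0, at -0.05 and -0.11.

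Markers of other cells were read in the same samples, where 34.2% of all tested genes were called higher and 31.1% lower. Of 10 macrophage markers 8 were called higher and none lower, and their summed level was 102 to 232 CPM in controls and 240 to 827 CPM under puberulic acid. Of 8 fibroblast markers 7 were called higher, with sums of 145 to 227.5 CPM in controls and 658 to 2465 CPM under puberulic acid. Among the 7, Lum had 7 to 18 counts per control library and passed the filter only through the puberulic acid samples. All 5 tested of 6 red cell markers were called lower, with sums of 991 to 3238 CPM in controls and 27.8 to 265 CPM under puberulic acid. Neutrophil markers were scarce, with Ly6g and Elane at 0 counts in all 10 libraries. Their sums were 0.896 to 2.24 CPM in controls and 3.42 to 6.31 CPM under puberulic acid. Of 3 tested, Csf3r and Cxcr2 were called higher. Csf3r had 5 to 23 counts per control library and Cxcr2 had 6 to 9, so they passed the filter on low counts only through the puberulic acid samples. Once tested, they could hardly be called lower, so their calls are not set against the share over all genes. Of 8 markers of the distal nephron 6 were called lower. Of 8 endothelial markers 2 were called lower, which is not above the share over all tested genes. Umod, not called at a log2 fold change of 0.06, made up most of the distal nephron sum, while the median log2 fold change of its 8 markers was -1.19. Sums for the distal nephron were 4312 to 6247 CPM and 3292 to 6591 CPM, and for endothelium 326 to 516 CPM and 194 to 435 CPM, in controls and with puberulic acid. The part of these shifts in the changes of the 10 genes was not tested.

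The samples within a group differed in a pattern shared by several genes. Puberulic acid replicate 1 was the lowest of its group for 4 genes (Mt1, Mt2, Slc30a1 and Cp) and the highest for 5 (Slc39a8, Slc39a14, Slc31a1, Atp7a and Atp7b). For the 6 of these 9 genes other than Slc30a1, Slc39a14 and Atp7a, that placed it on the control side of its group. Without it the log2 fold change was 2.81 for Mt2 and -1.24 for Slc31a1. Control replicate 5 was the highest control for Mt1, Mt2 and Cp, and control replicate 1 for Slc39a8, Slc39a10, Slc39a14 and Atp7a.

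The regulator MTF1 and the wider families were read from lists of related genes. Mtf1 was at 17.0 ± 2.02 CPM in controls and 29.1 ± 4.30 CPM under puberulic acid (SD, n = 5 per group), a log2 change of 0.77 (SE 0.12, adjusted p = 0.000141). The other metallothioneins, Mt3 and Mt4, did not pass the filter on low counts, and with no filter both were tested and neither was called. Mt3 stood at 4 to 17 counts per library in controls and 7 to 16 with puberulic acid, and Mt4 at 0 counts in controls and at most 1 count with puberulic acid, which is under the 3 counts that a count of 0 allows.

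Of the other 9 members of the SLC30 family, 6 were tested, 1 was called higher and 4 lower, with a median log2 fold change of -0.37. Among all tested genes 34.2% were called higher and 31.1% lower. Slc30a4, which loads zinc into vesicles, rose from 28.8 ± 6.52 to 50.45 ± 2.48 CPM (SD, n = 5 per group; log2 fold change 0.81). The largest fall was that of Slc30a2, another vesicular transporter, from 67.25 ± 10.7 to 19.95 ± 3.43 CPM (SD, n = 5 per group; log2 fold change -1.75). Slc30a9, Slc30a6 and Slc30a5 followed at -0.77, -0.42 and -0.32, with adjusted p-values of 3.07e-05, 0.00301 and 0.0158. With total counts Slc30a6 and Slc30a5 turned to 0.09 and 0.19 and were not called, Slc30a7 was called higher (0.845 against 0.34, not called, with TMM factors), and the list had 2 called higher and 2 lower. Slc30a5 was not called with upper-quartile factors either.

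Of the other 11 importers of the SLC39 family, 8 were tested. Of these, 3 were called higher and 3 lower, and the median log2 fold change was -0.09. Such a split is close to that of all tested genes, with 34.2% called higher and 31.1% lower. Slc39a6, the importer ZIP6 that pairs with ZIP10, rose from 5.75 ± 0.75 to 16.9 ± 1.16 CPM (SD, n = 5 per group; log2 fold change 1.55, adjusted p = 5.74e-07). Slc39a1 and Slc39a9 rose by 0.70 and 0.61 on the log2 scale. Slc39a5, known for import at the basolateral side of epithelia, fell from 35.8 ± 12.2 to 4.22 ± 2.24 CPM (SD, n = 5 per group; log2 fold change -3.08), further than any of the 10 genes above. Slc39a11 and Slc39a3 followed at -1.16 and -0.56, and Slc39a3 was not called with total counts (-0.05). Slc39a7 and Slc39a13 were not called, at -0.05 and -0.12, and with total counts they were called higher, at 0.46 and 0.39.

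Of 17 other genes of copper handling 16 were tested, 3 were called higher and 10 lower, with a median log2 fold change of -0.54. The shares over all tested genes were 34.2% higher and 31.1% lower. Ccs, the chaperone that loads copper into superoxide dismutase 1, fell most, from 136 ± 15.4 to 33.6 ± 3.64 CPM (SD, n = 5 per group; log2 fold change -2.02, adjusted p = 3.11e-08). Its client Sod1 went from 666 ± 58.9 to 228 ± 9.70 CPM and the secreted dismutase Sod3 from 660.0 ± 63.0 to 235 ± 21.7 CPM (SD, n = 5 per group), log2 fold changes of -1.55 and -1.49. Steap3, a metalloreductase, fell by 0.77 on the log2 scale. Those that rose were Steap4 (log2 fold change 1.72), Slc31a2 (0.75) and Steap2 (0.43). Steap4 had only 8 to 25 counts per control library and 38 to 141 with puberulic acid. It therefore passed the filter on low counts only through the puberulic acid samples and, once tested, could hardly be called lower. With total counts 5 were called higher and 3 lower, and the 3 were Ccs, Sod1 and Sod3.

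**Figure D4:**
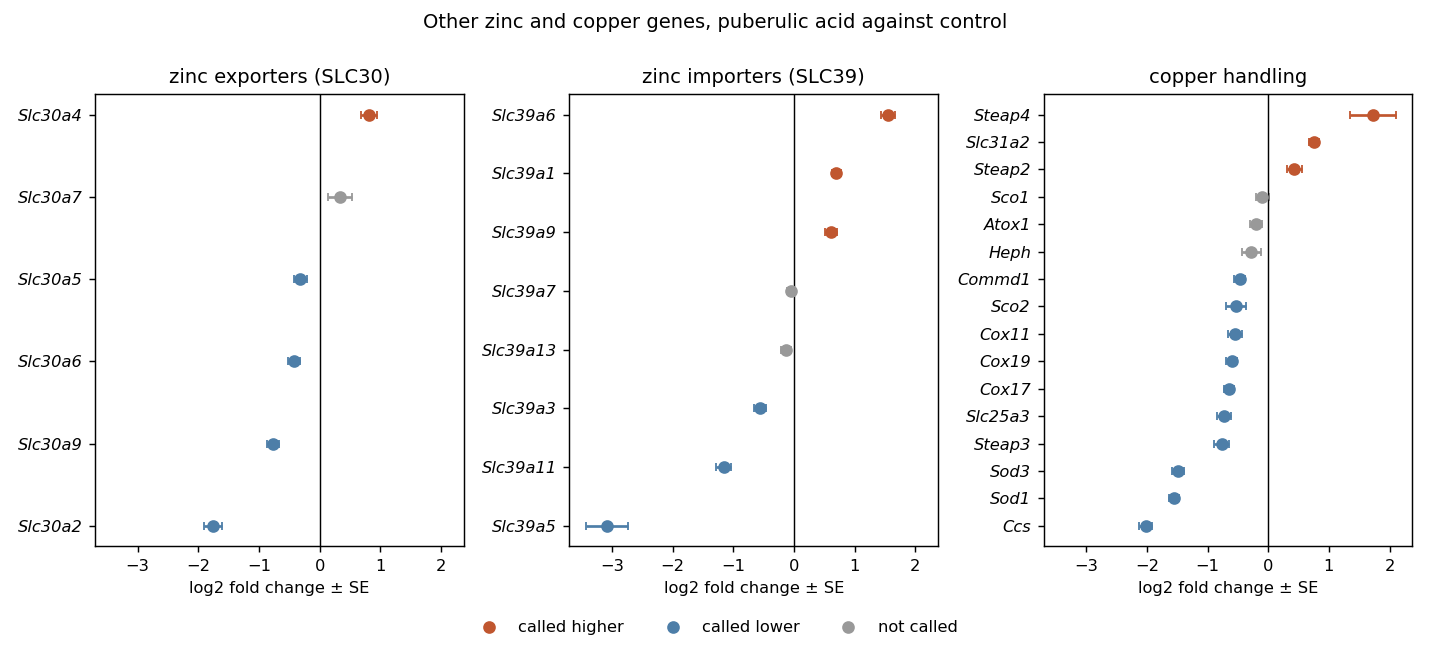
Log2 fold changes ± SE (horizontal axes, puberulic acid against control) of the tested genes of the SLC30 exporters, the SLC39 importers and copper handling other than the 10 main genes, in orange where called higher, blue where called lower and grey where not called. Slc39a5 lies furthest to the left at -3.08, and Ccs is the lowest copper gene at -2.02.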

How the data were processed

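Poly(A) RNA of 20 kidney samples in 4 groups of 5 was sequenced with a directional library kit, per the labels' protocols. The authors deposited estimated counts per gene. The submitters' processing notes name fastp 0.22.0, FastQC 0.12.1, MultiQC 1.28, Salmon 1.10.3, DESeq2 and the build GRCm39, without their roles. How transcripts were summed to genes is not given in the sources used here, and estimates can divide reads among similar genes. Column names matched 10 samples, and the other 10 columns were not used. Symbols were found for 51344 of 55822 identifiers, which hold 99.3% of the counts.

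The counts were rounded, filtered with filterByExpr, scaled with TMM factors and tested with edgeR 4.0.16 (limma 3.58.1, R 4.3.3), fitting control and puberulic acid samples only, with adjustment over all 16266 genes. The SE was taken as the size of the log2 change over the root of its F statistic. The script was tested on simulated data. Sequences are RefSeq's, in GRCm38.p6, and their coordinates apply to that build only. Alternatives were RLE, upper-quartile and total-count scaling, other filters, DESeq2 1.42.0, a robust fit, omission of abundant genes, a replicate block and leaving out each sample. A count of 3 corresponds to 0.0964 to 0.195 CPM, counting error only.

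The 10 genes, the lists and the tests were chosen with earlier results of these data known. The rule for names took all 10 genes, Mtf1, up to 4 called genes per direction of each related list by size of change, and the 5 genes most correlated with each of Mt1, Slc39a10 and Slc31a1. Mt3, Mt4, Slc30a7, Slc39a7, Slc39a13, the cell type markers and 5 genes of the acute phase list (Socs3, Osmr, Lrg1, Il6ra and Lbp) fall outside it. They were named after their values were seen.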

Additional observations from a re-analysis of the deposited data

Results flagged for a closer look

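In each of the 20 groups of 5 values of the 10 genes, the highest and lowest samples were checked for a gap to the nearest other sample above 0.71 of the range of the group. Chance gives about 1 such group in 20, and 3 were found. Mt2 was highest in control replicate 5, at 65.4 CPM, with a gap of 0.865 of the range, and without that sample its log2 fold change was 2.88 against 2.71. Slc31a1 was highest in puberulic acid replicate 1, at 112 CPM, with a gap of 0.769, and without it the log2 fold change was -1.24 against -1.10. Atp7a was highest in control replicate 1, at 7.19 CPM, with a gap of 0.729, and without it the log2 fold change was 2.17 against 1.68.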

How the results depend on the processing

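Over 19 alternatives, 184 of 190 values of the 10 genes kept their direction and their side of the threshold, none reversed, and the 6 that lost the call were those of Slc30a1 with total counts and of Atp7b described above. The 6 higher calls held in every alternative run. With total counts the number of the 10 genes called lower was 2 against 4, and over all genes 9179 were called higher and 2526 lower against 5564 and 5058, in a scaling that moves nearly every value up. Leaving out each sample in turn gave 3 to 4 of the 10 genes lower and 10104 to 11108 genes called in all. With the replicate block 10325 genes were called against 10622, 3 of the 10 genes lower and 6 higher. Same-numbered samples had deviations with a mean correlation of -0.036 (from -0.172 to 0.039), and 0 of 5 controls correlated best with their own number, so the numbers are not read as pairs. Atp7a and Atp7b rest on the lowest counts of the 10 genes, and Mt3 and Mt4 were tested only in alternatives, where neither was called.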

Other observations

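Mt1, Mt2, Slc39a14 and Cp are also known as genes of the acute phase, the response to interleukin-6 and related cytokines. A list of 12 other genes held acute phase genes and, with Socs3, Osmr and Il6ra, genes of the signalling by such cytokines. Of the 12, 9 were tested, and all 9 were called higher. For 4 of them (Saa1, Saa2, Hp and Fgb) fewer than 5 control libraries reached 10 counts, so they passed the filter on low counts only through the puberulic acid samples and, once tested, could hardly be called lower. The count is therefore not set against that of all genes. The other 5 were Socs3 (log2 fold change 4.72), Osmr (2.94), Lrg1 (2.34), Il6ra (1.77) and Lbp (1.02), with at least 10 counts in every control library. The serum amyloid gene Saa1 went from at most 1 count per control library to 11.98 ± 4.31 CPM (SD, n = 5), and Saa2 from 0 counts in every control library to 1.15 ± 0.45 CPM (SD, n = 5). These paralogs may share reads. Fgb, a fibrinogen chain, rose from 0.982 ± 1.1 to 36.0 ± 19.2 CPM (SD, n = 5 per group; log2 fold change 5.23). Hp, haptoglobin, rose from 0.33 ± 0.10 CPM to 13.0 ± 22.3 CPM (SD, n = 5 per group; log2 fold change 5.25). That mean rests on puberulic acid replicate 3, at 52.65 CPM: the other 4 samples lay between 0.891 and 6.32 CPM, and without replicate 3 the log2 fold change of Hp was 3.15 (adjusted p = 0.000466, edgeR).

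Glucocorticoids also induce metallothioneins. Of 10 genes that respond to glucocorticoids or encode their receptor, 2 were called higher and 4 lower, with a median log2 fold change of -0.13. Among all tested genes 34.2% were called higher and 31.1% lower, 65.3% in all, so calls in this list are about as common as elsewhere. A glucocorticoid effect was not tested. Klf9 fell from 202.5 ± 22.6 to 82.3 ± 14.1 CPM (SD, n = 5 per group; log2 fold change -1.30), followed by Tsc22d3 (-1.04), Errfi1 (-0.61) and Fkbp5 (-0.50). Ddit4 and Zbtb16 had log2 fold changes of 1.07 and 1.44. With total counts 5 were called higher and 1 lower. Zbtb16 lost its call with the replicate block, without puberulic acid replicate 1 and without puberulic acid replicate 3.

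The genes whose log2(CPM + 1) values ran most like those of Mt1 over the 10 samples, among the 14606 named genes whose mean level reached 1 CPM, were Triobp, Yjefn3, Spns2, Sf3b4 and Hmox1, with Pearson r from 0.992 down to 0.986. Hmox1 encodes heme oxygenase 1 and had a log2 change of 1.96. For Slc39a10 they were Igsf5, Ddx19b, Dhx15, Pi4k2b and Jpt2 (r from 0.984 to 0.977), and for Slc31a1 they were Slc25a13, Sepsecs, Chdh, Rufy3 and Snn (r from 0.997 to 0.996). These samples share the group difference and the libraries, so the r values describe these 10 samples and are given without a test.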
